A study of Mus musculus with 45 samples.

Results

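The first hour of actinomycin D in NIH-3T3 cells, an immortalised line of mouse embryonic fibroblasts, was followed on 6 of the 45 arrays of the series: 3 arrays of total cellular RNA from cells given the drug for 1 h and 3 arrays of total cellular RNA from cells harvested before it was added. The arrays were chosen by their labels alone, with no measured value. The cells, of passages 5 to 15, had been plated at 40% density 24 h earlier and stood at 80% density at the start. Actinomycin D was given at 5 µg/ml in fresh, prewarmed medium, and the labels mention no new medium for the cells taken before it, so the drug and the medium change cannot be told apart in this comparison. Arrays of cells fed 4-thiouridine, at 500 µM for 30 min or 200 µM for 60 min and without actinomycin D, serve further on as a separate readout. All groups grew in medium with 5% serum, and the labels name no transgene or deletion. Replicates were numbered 1 to 3 in each group, and nothing stated that they came from separate cultures, so p-values measure the spread between these arrays, which may be technical.

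Actinomycin D intercalates into DNA and stops RNA polymerases from moving along it. Once synthesis stops, each messenger RNA declines at its own rate, so the messages that are low soonest are the unstable ones. In fibroblasts these are classically the immediate-early genes, many of whose messages carry AU-rich elements in the 3′ end that recruit the deadenylation machinery. Arrays of this kind are normalised to one another and receive equal amounts of labelled RNA, so a stable message in a shrinking pool reads as a rise in relative level, and a rise here does not mean more molecules per cell.

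Values are GCRMA intensities, a background-corrected and quantile-normalised summary of each probe set. Of 31390 probe sets that are not array controls, 15060 had a mean log2 intensity of at least 5 (intensity 32) over the arrays before, at 1 h and at 2 h of the drug and were tested. A probe set was called when limma's moderated test gave a Benjamini-Hochberg adjusted p under 0.05 and the log2 change, 1 h minus before, was at least 1 in size. By that rule 539 probe sets were lower (3.58%) and 387 were higher (2.57%) at 1 h, 926 in all (6.15%). With 1 probe set for each of 8169 genes, the brightest, 313 genes were lower (3.83%) and 65 were higher (0.796%). The changes of genes ran from -4.46 to 1.64, with a median of 0.04, and 54.2% lay above 0. The 3 arrays of 1 group lay entirely to one side of the 3 arrays of the other for 49.9% of probe sets, so separation of the arrays alone was common. The files give no detection calls, so where a group reads below 32 the size of a change is uncertain.

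Each of the 6 arrays correlated with the others of its group at a median r between 0.984 and 0.990. The difference between the 3′ and 5′ probe sets of Actb, a sign of RNA integrity, was 0.61 to 0.72 log2 units at 1 h and 0.69 to 0.79 before, while that of Gapdh was -0.43 to -0.24 at 1 h and -0.19 to -0.14 before, with no overlap. Actb itself, the cytoplasmic actin used as a reference message, read 14240, 13050 and 12700 at 1 h, against 14110, 14240 and 14320 before (log2 change -0.10 ± 0.09 SE, adjusted p = 0.45 by limma). Its other tested probe set, which was dimmer, changed by -0.90 ± 0.43 and was not called (adjusted p = 0.13 by limma). The 11 fibroblast markers, collagens and vimentin among them, were all tested, none was below 32 on all 6 arrays, and their summed intensity was 56977 to 70422 at 1 h, against 70194 to 76187 before. All 6 epithelial, all 4 endothelial and muscle and 4 of 5 leukocyte markers stayed below 32 on all 6 arrays, with Cd14, a co-receptor for lipopolysaccharide, reaching 67.0.

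The promoter windows below, from RefSeq on GRCm38.p6, run 5′ to 3′ up to the base before the annotated start. They are examples from 5 of the genes that fell at 1 h and hold an element searched for. Capitals mark the cAMP response element TGACGTCA in Dusp1 and Plk2, a pair of adjoining CArG boxes, the site of serum response factor, in Dusp5, and the TATA element TATAAA in Snhg5 and Ccn1.
Dusp1, chr17:26508473-26508632, minus strand: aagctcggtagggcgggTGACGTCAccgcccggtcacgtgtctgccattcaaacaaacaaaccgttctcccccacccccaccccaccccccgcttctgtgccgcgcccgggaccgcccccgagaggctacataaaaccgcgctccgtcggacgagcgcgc
Plk2, chr13:110394934-110395043, plus strand: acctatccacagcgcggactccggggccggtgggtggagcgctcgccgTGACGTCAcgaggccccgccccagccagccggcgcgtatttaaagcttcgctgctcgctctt
Dusp5, chr19:53529035-53529144, plus strand: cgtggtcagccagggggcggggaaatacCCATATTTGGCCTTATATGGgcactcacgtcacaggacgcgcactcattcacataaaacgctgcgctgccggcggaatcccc
Snhg5, chr9:88522898-88522957, minus strand: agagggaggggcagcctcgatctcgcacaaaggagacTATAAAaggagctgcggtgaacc
Ccn1, chr3:145649986-145650045, minus strand: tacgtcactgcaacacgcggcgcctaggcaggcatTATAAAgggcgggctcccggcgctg
Counted back from the start, the capitals begin at base -143 in Dusp1, -62 in Plk2, -82 and -72 in Dusp5, -23 in Snhg5 and -25 in Ccn1. Both strands of the 250 bases before the start were searched. Among the 133 lost genes that were also higher in newly transcribed RNA (described further on), 106 had a promoter in the table, and TGACGTCA was in 6 of them (5.66%), a CArG box in 5 (4.72%) and TATAAA in 14 (13.2%). The shares over the 6743 tested genes with a promoter were 3.41%, 1.38% and 7.49%. With untested genes included, 27025 in all, they were 1.77%, 1.62% and 14.3%. Over all 245 lost genes with a promoter they were 3.27%, 2.45% and 7.76%, and in the 52 that were lower in new RNA there was no TGACGTCA, no CArG box and 1 TATAAA (1.92%). The 52 genes that rose and had a promoter held TGACGTCA in 5.77%, a CArG box in 1.92% and TATAAA in 13.5%. These matches are letters in a window, not shown sites of a factor.

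The MAP kinase feedback genes were the group with the lowest median. Dusp1, a nuclear phosphatase that switches off MAP kinases (chromosome 17), read 28.6, 36.6 and 18.2 at 1 h, against 517, 620 and 637 before. No array at 1 h came near those before, and the log2 change was -4.46 ± 0.24 (SE, n = 3 each, limma adjusted p = 9.1e-06), the largest fall of any gene tested; 2 of its 3 arrays at 1 h were already below 32. Dusp5, the phosphatase of nuclear ERK whose promoter holds the CArG boxes, read 24.8, 24.3 and 23.8 at 1 h, against 234, 258 and 246 before (-3.34 ± 0.21, adjusted p = 2.1e-05 by limma). Dusp6, its cytoplasmic counterpart, read 73.4, 72.6 and 64.5 at 1 h, against 439, 462 and 645 before (-2.86 ± 0.30). The Sprouty proteins, inhibitors of receptor tyrosine kinase signalling, fell less: Spry2 read 59.1, 86.4 and 84.4 at 1 h, against 232, 268 and 261 before (-1.74 ± 0.20), and Spry1 changed by -1.82 ± 0.29. In all, 9 of the 13 genes of the list that were tested fell, none rose, and the median log2 change was -1.31, beside 0.04 over all genes and 3.83% of genes lower.

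Transcription factors of the immediate-early class were the next group. Myc, the growth-promoting factor (chromosome 15), read 74.5, 59.4 and 63.2 at 1 h, against 482, 615 and 677 before. The 2 groups were far apart, with a log2 change of -3.16 ± 0.19 (limma adjusted p = 1.4e-05). Mnt, a repressor that competes for Max, also fell (-1.61 ± 0.16), and Mlx, a partner of the glucose-sensing factors, rose (1.17 ± 0.17), among 9 genes of the Myc and Max network. Egr1, a zinc-finger factor induced by serum, read 262, 218 and 212 at 1 h, against 1498, 1417 and 1234 before (-2.59 ± 0.16, adjusted p = 2e-05 by limma). With it fell Klf10, a TGF-beta-induced factor (-1.65 ± 0.26), Klf5 (-1.22 ± 0.23) and Klf4 (-1.20 ± 0.20). In their list 6 of 14 tested genes fell (42.9%, beside 3.83% of all genes) and none rose. Jun, the core AP-1 subunit, read 358, 306 and 294 at 1 h, against 1012, 1203 and 1349 before (-1.89 ± 0.18), and both of its tested probe sets gave nearly the same change. Its partners Fosl2 (-1.66 ± 0.19) and Fosl1 (-1.34 ± 0.21) fell as well. Of 11 AP-1 and ATF genes 5 fell (45.5%) and none rose, with a median of -0.95, and 3 were called when 32 was added to each intensity before the log.

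Nfil3, a repressor that opposes the PAR bZIP activators of the clock (chromosome 13), read 22.6, 22.6 and 17.3 at 1 h, against 209, 187 and 211 before. All 3 arrays at 1 h were below 32, and the log2 change was -3.29 ± 0.16 (limma adjusted p = 9.1e-06). Bhlhe40, a clock repressor, changed by -2.23 ± 0.30. The C/EBP factors were abundant and fell to intermediate levels: Cebpb read 1023, 695 and 782 at 1 h, against 2863, 1985 and 2922 before (-1.63 ± 0.21), and Cebpd read 900, 645 and 678 at 1 h, against 2161, 2072 and 2019 before (-1.51 ± 0.14). These 4 were the called genes among the 12 tested of the list (33.3%, beside 3.83% of all genes lower), and none rose.

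**Figure D1:**
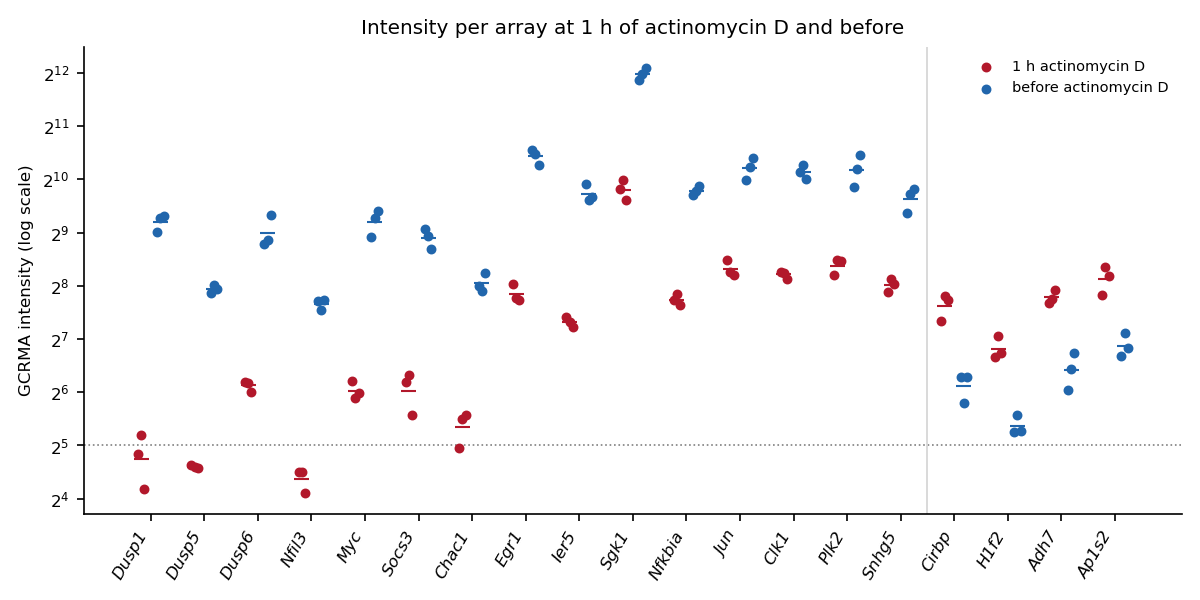
GCRMA intensity on a log2 axis for 15 genes that fell (left of the grey line) and 4 that rose (right of it), 1 point per array, with 1 h of actinomycin D in red to the left of before in blue; short bars are the mean of the log2 values and the dotted line is intensity 32. In all 19 genes the 3 arrays of one group lie apart from the 3 of the other, and Dusp5 and Nfil3 are below 32 on every array at 1 h.

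Socs3, which limits cytokine receptor signalling, read 73.6, 79.6 and 47.4 at 1 h, against 535, 492 and 412 before (-2.87 ± 0.26). Nfkbia, the inhibitor that holds NF-kappaB in the cytoplasm, read 213, 229 and 199 at 1 h, against 831, 877 and 937 before (-2.05 ± 0.15, limma adjusted p = 5.4e-05). Irf1, an interferon-response factor, changed by -2.09 ± 0.20. These were 3 of the 4 genes that fell among 22 NF-kappaB, cytokine and Socs genes tested (18.2%, beside 3.83% of all genes). The other 18 were not called. Chac1, a glutathione-degrading enzyme induced by Atf4, read 30.9, 45.2 and 47.6 at 1 h, against 256, 239 and 302 before (-2.71 ± 0.18). It was the lowest of the amino acid and unfolded protein stress list, where 8 of 31 fell (25.8%), 23 were not called and the median was -0.17. Ppp1r15a (-1.87 ± 0.19), which reverses the translational block of stressed cells, Ddit3 (-1.43 ± 0.18), the CHOP factor, and Ddit4 (-1.37 ± 0.15), an inhibitor of mTORC1, were among them. The chaperones had no call among 22 genes tested, where 3.83% lower and 0.796% higher over all genes come to about 1 gene, and a median of 0.05; the largest changes were Bag3 at -0.58, Hspe1 at 0.35 and Cct8 at 0.27.

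Among growth-arrest and p53 target genes 10 of 27 fell (37.0%, beside 3.83% of all genes) and none rose. Ier5l read 21.8, 22.3 and 11.4 at 1 h, against 397, 247 and 325 before (-4.16 ± 0.27), and its relative Ier5 read 171, 159 and 150 at 1 h, against 963, 783 and 814 before (-2.41 ± 0.12, limma adjusted p = 9.1e-06). Plk2, a polo-like kinase of the early serum response, read 294, 358 and 352 at 1 h, against 929, 1177 and 1400 before (-1.79 ± 0.27). Sesn2, an antioxidant sestrin, changed by -1.44 ± 0.30. Sgk1, a kinase of the insulin pathway, was abundant before the drug and strongly lost: it read 903, 1014 and 778 at 1 h, against 3744, 4050 and 4347 before (-2.18 ± 0.16). Mcl1, the short-lived anti-apoptotic protein of the Bcl2 family, read 775, 850 and 794 at 1 h, against 1621, 1761 and 1853 before (-1.11 ± 0.13). Mcl1 was 1 of 3 called among 18 genes of that family (16.7%). Of its 5 other probe sets 1 was called, at -1.08, and 4 were not, at -0.89 to -0.48.

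Targets of TGF-beta, BMP and YAP had the third-lowest median of the lists with 9 or more tested genes (-0.70). Of the 23, 7 were lower (30.4%, beside 3.83% of all genes), none was higher, and 22 lay below 0. Smad7, the inhibitory Smad, changed by -1.73 ± 0.24, Ajuba, a LIM protein of the Hippo pathway, by -1.59 ± 0.15, and Cited2, a transcriptional co-regulator, by -1.27 ± 0.17. Ccn1, the matricellular protein whose promoter is printed above, read 569, 519 and 425 at 1 h, against 1255, 1120 and 1237 before (-1.26 ± 0.30). At 2 h it was 4.96 log2 units below the level before the drug, so most of its decline in log2 units came in the second hour. Its mean intensity was 1204 before, 504 at 1 h and 41.9 at 2 h. In the actin and SRF list 6 of 40 fell (15.0%) and none rose, and 3 of the 6 were the Cdc42 effectors Cdc42ep1, Cdc42ep2 and Cdc42ep3. Cdc42ep2 read 340, 332 and 319 at 1 h, against 1155, 951 and 1048 before (-1.67 ± 0.12). Among growth factors and receptors 3 of 26 fell (11.5%) and Hgf rose. Vegfa, the angiogenic factor, changed by -1.09 ± 0.13 on its brightest probe set and by 0.16 ± 0.15 on its other. The other falls, Bmp1 (-1.09 ± 0.25) and Ccn2 (-1.05 ± 0.20), were at -0.95 and -0.94 without replicate 2 at 1 h and at -0.91 and -0.90 without replicate 3 at 1 h, and Hgf, at 1.04, was at 0.99 without replicate 2 before. The other Hgf probe sets were at 1.17 and -0.77. With 32 added to each intensity Vegfa was at -0.95 and Hgf at 0.90, neither was called, and the list held 1 fall and no rise.

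Clk1, a kinase of splicing factors, read 308, 304 and 279 at 1 h, against 1123, 1238 and 1029 before (-1.93 ± 0.11, limma adjusted p = 1.1e-05). It led the 4 of 20 genes (20%) that fell in the list of Clk kinases, cyclin L and P-TEFb, with Brd2, a bromodomain reader (-1.16 ± 0.16), and Ccnl1, cyclin L1 (-1.13 ± 0.14). Of 56 genes of the decay machinery 3 fell (5.36%, beside 3.83% of all genes): Cnot3, a subunit of the CCR4-NOT deadenylase (-1.93 ± 0.30), and the AU-rich element binding proteins Zfp36 (-1.73 ± 0.22) and Zfp36l2 (-1.50 ± 0.19). The hosts of small nucleolar RNAs Snhg5 and Zfas1 fell: Snhg5 read 235, 279 and 261 at 1 h, against 659, 840 and 906 before (-1.62 ± 0.15), and Zfas1 read 658, 675 and 737 at 1 h, against 1656, 1344 and 1418 before (-1.09 ± 0.11). In their list, which also holds nuclear RNAs, 3 of 17 tested genes fell (17.6%, beside 3.83% of all genes). Of the rest 1 rose and 13 were not called, and the list median was -0.30. The third fall, Snhg7, was not called in 4 of the fits without 1 array. The noncoding RNA Chaserr, which lies upstream of Chd2, changed by -1.74 ± 0.17. The Zfp zinc-finger genes were the largest list, with a median of -0.32 and with 108 of 143 below 0. Of these 143 genes 18 fell (12.6%) and 2 rose (1.40%, beside 0.796% of all genes). Zfp212 (-1.88 ± 0.10) and Zfp719 (-1.71 ± 0.18) were the lowest of them. Most were dim, and 7 of the 143 were called lower when 32 was added to each intensity.

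By limma's test and the thresholds above, which called 3.83% of all genes lower and 0.796% higher, none of 69 oxidative phosphorylation genes, 35 proteasome subunits, 42 cytosolic ribosomal proteins, 46 replication genes, 29 sterol and fatty acid genes or 28 glycolysis and citrate cycle genes was called in either direction. Yet 60 of the 69 oxidative phosphorylation genes, 32 of the 35 proteasome subunits and 60 of 71 mitochondrial ribosomal proteins lay above 0, with medians of 0.23, 0.23 and 0.30, beside 54.2% of all genes above 0. Psma7, a core proteasome subunit, read 3212, 2714 and 2670 at 1 h, against 1412, 1764 and 1879 before (0.77 ± 0.13). Ndufs4, a subunit of respiratory complex I, read 695, 644 and 699 at 1 h, against 382, 458 and 445 before (0.67 ± 0.11). Both sets of arrays were separate, and neither change reached 1. Cytosolic ribosomal proteins were closer to 0, with a median of 0.05; Rpl11 read 9951, 9267 and 9345 at 1 h, against 7570, 7873 and 8888 before (0.23 ± 0.11, adjusted p = 0.11 by limma). Among 45 mitosis genes Ccnf, cyclin F, was the only call, at 91.0, 101 and 69.7 at 1 h, against 289, 286 and 289 before (-1.74 ± 0.17). Fbxo5, the Emi1 inhibitor of the anaphase-promoting complex in the ubiquitin list, changed by -1.61 ± 0.19. The 2 polymerase II genes called among 52 (3.85%, beside 3.83% of all genes), Polr2a (-1.05 ± 0.27) and Ell (-1.01 ± 0.19), were at the threshold, and neither was called without replicate 2 at 1 h, replicate 3 at 1 h or replicate 1 before, where Polr2a was -0.93, -0.94 and -0.98 and Ell -0.95, -0.95 and -0.91.

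**Figure D2:**
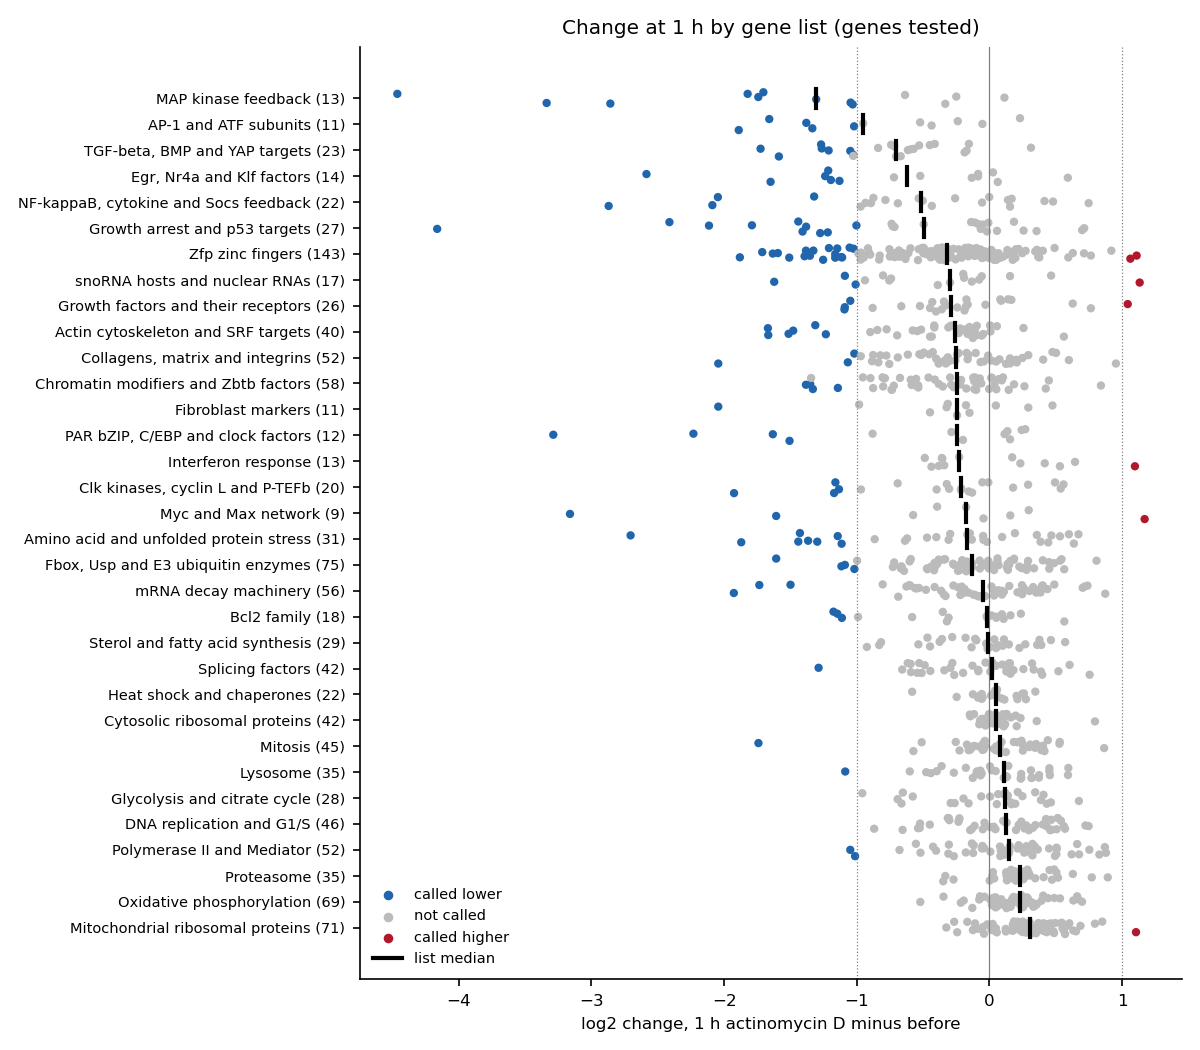
Log2 change of each gene, 1 h of actinomycin D minus before, for lists with 9 or more tested genes (number in brackets), ordered by the list median (black bar); blue points were called lower, red higher and grey were not called, and dotted lines mark a change of 1. The MAP kinase list has its median at -1.31 and the mitochondrial ribosomal list at 0.30.

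The largest rises were smaller than the largest falls, and few were the brightest probe set of their gene. Cirbp, a cold-inducible RNA-binding protein, read 161, 224 and 213 at 1 h, against 78.0, 55.7 and 78.1 before. The groups did not overlap (1.50 ± 0.21, limma adjusted p = 0.0011), and at 2 h its level was 1.57 above that before the drug. H1f2, a linker histone, read 101, 133 and 107 at 1 h, against 38.2, 47.4 and 38.8 before (1.45 ± 0.18); its second probe set changed by 1.67 ± 0.19. H1f2 was further from the level before the drug at 2 h, at 2.27. Adh7, an alcohol dehydrogenase, read 203, 216 and 241 at 1 h, against 66.2, 86.8 and 107 before (1.37 ± 0.19). Ap1s2, an adaptor subunit of clathrin vesicles, read 228, 327 and 292 at 1 h, against 103, 138 and 114 before (1.25 ± 0.20), and its other 2 tested probe sets, at 0.37 and 0.47, were not called. Dcun1d1, which promotes neddylation (1.11 ± 0.16), Vma21, an assembly factor of the proton pump (1.08 ± 0.12), and Bst2, the antiviral protein tetherin (1.10 ± 0.18), rose as well. The other 3 Vma21 probe sets (0.61, 0.75 and 0.50) and the second of Mlx (0.52) were not called. For Dcun1d1 a further probe set was called, at 1.20, and another was not, at 0.18. The second of Adh7 was called, at 1.10. With 32 added to each intensity the changes of H1f2, Mlx, Dcun1d1, Vma21 and Bst2 were 0.98, 0.95, 0.98, 0.96 and 0.81 and below the threshold, while Cirbp, Adh7 and Ap1s2 stayed above it at 1.17, 1.10 and 1.06.

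Including Hgf, 7 of the 15 named gains lost their call when 1 array was left out. Cryzl1, Ndufaf5, Tmlhe and Malat1 did so for any of 3 arrays. Bbx, at 1.10, was at 0.91 without replicate 2 before, and its other 3 probe sets, at 0.40 to 0.69, were not called, and Mrpl50, at 1.10, was at 0.96 without replicate 1 before. Cryzl1, at 1.04, was at 0.93, 0.98 and 0.97 without replicate 2 at 1 h, replicate 3 at 1 h and replicate 1 before. Ndufaf5, at 1.01, was at 0.99, 0.99 and 0.90, and Tmlhe, at 1.02, was at 0.99, 0.97 and 0.99, without those same arrays. Further probe sets of Mrpl50 (0.49), Cryzl1 (0.99 and 0.62) and Tmlhe (0.49 and 0.61) were not called. The seventh was Malat1, a nuclear noncoding RNA.

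Malat1 is measured by 7 probe sets that disagreed. The brightest read 13760, 15180 and 14050 at 1 h, against 9499, 5343 and 5492 before, where replicate 1 stood apart. Its change of 1.13 ± 0.31 (adjusted p = 0.018 by limma) had an adjusted p of 0.058 without replicate 2 at 1 h and of 0.059 and 0.062 without replicate 2 or replicate 3 before. The fourth brightest read 656, 717 and 618 at 1 h, against 175, 117 and 76.2 before. That change, 2.52 ± 0.30, was the highest of all 15060 probe sets tested. The dimmest read 68.9, 120 and 104 at 1 h, against 268, 262 and 279 before (-1.50 ± 0.24), so 1 annotated gene held both a called rise and a called fall. That probe set was also the highest of the 7 in newly transcribed over total RNA, at 2.77 ± 0.15 log2 units, against 0.14 ± 0.82 for the one that rose most.

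**Figure D3:**
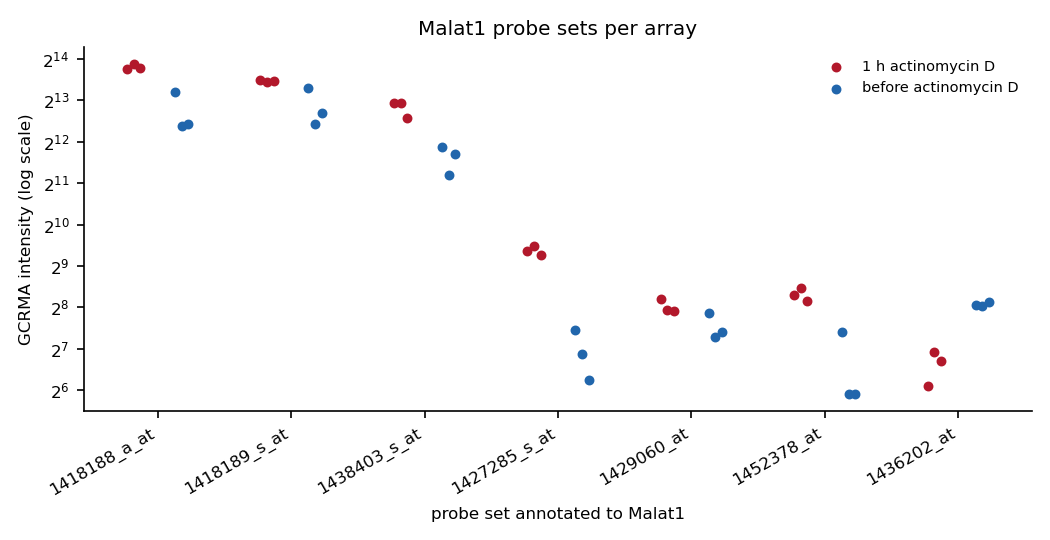
GCRMA intensity on a log2 axis of the 7 probe sets annotated to Malat1, from brightest to dimmest, 1 point per array, with 1 h of actinomycin D in red to the left of before in blue. The first 6 are higher on average at 1 h and the last, between 68.9 and 120 at 1 h, is below all arrays before.

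Of the 387 probe sets that rose, 363 carried 1 gene symbol, and 65 of those (17.9%) were the brightest of their gene, beside 59.5% of all tested probe sets with 1 symbol and 66.9% of those that fell. The other 298 belonged to 268 genes. For these probe sets the brightest probe set of the same gene had a median change of 0.27, was called higher in 9 cases and was called lower in none. Which transcripts the dimmer probe sets detect was not tested.

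The arrays of newly transcribed RNA give a readout that shares no array with the comparison above. Cells were fed 4-thiouridine, a nucleoside that marks new transcripts, at 500 µM for 30 min, and RNA carrying it was purified and compared with total RNA of such cells, on 9 arrays each. Where levels are steady, a short-lived message is made fast for its level and is a larger share of new RNA. By the same thresholds 3804 of 16044 probe sets were higher (23.7%) and 4112 lower (25.6%) in new RNA than in total RNA. These arrays have a limit of their own: total RNA replicates 2, 5 and 8 had a 3′ minus 5′ difference in Actb of 1.30 to 1.50, against 0.52 to 0.70 in the other 6, and replicates of either group resemble each other in sets of 3. The SEs and calls take the 9 arrays of a group as independent, and the SEs may be too small if the sets are repeats.

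Of the 536 lost probe sets tested in new RNA, 276 were higher there (51.5%), beside 15.1% of all 14053 tested in both comparisons, and 100 were lower (18.7%, beside 29.2%). With replicates 3, 6 and 9 alone these were 237 and 147, beside 17.9% and 29.8% of all. The 276 had a median change of -1.38 at 1 h, and of -2.64 at 2 h, where the same arrays before the drug serve as the base of both. Their median in new over total RNA was 2.19. Dusp1 stood at 2.80 ± 0.16 in new over total RNA, Dusp5 at 3.02 ± 0.16, Dusp6 at 3.02 ± 0.12, Myc at 2.77 ± 0.15 and Nfil3 at 2.52 ± 0.15. Clk1 was at 2.72 ± 0.17, Snhg5 at 2.72 ± 0.13, Chaserr at 2.74 ± 0.11 and Ccnl1 at 2.97 ± 0.12. Not all strongly lost messages were so: Cebpb was at 0.80 ± 0.16, Cebpd at 0.39 ± 0.22 and Ajuba at 0.71 ± 0.13. Levels were not all steady between the experiments. Mean total RNA at 30 min, against before the drug, was 1165 against 592 for Dusp1, 827 against 246 for Dusp5 and 966 against 515 for Dusp6. It was 742.5 against 1130 for Clk1 and 351 against 429 for Chaserr. The median of the 276 on these arrays was -0.01 to 0.34 relative to before. The part of changing synthesis in the new over total values was not tested. The 133 genes of this class whose brightest probe set was lost span a median of 13588 bases of the genome. The median was 16512 for those lost and lower in new RNA and 24230 for the 114 lost and not called there. Over all 313 lost genes it was 15987, over the 65 that rose 23067 and over all tested genes 25149.

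The 100 lost probe sets that were lower in new RNA behaved otherwise. Their median change was -1.18 at 1 h, much like the others, but 0.26 at 2 h. Col1a1, the main fibrillar collagen chain, read 2016, 1354 and 1344 at 1 h, against 7485, 5976 and 5754 before (-2.04 ± 0.21, limma adjusted p = 0.00031), and 7162, 4471 and 4950 at 2 h. In new over total RNA it was at -1.94 ± 0.23, and its second probe set changed by -0.88 ± 0.29 at 1 h and was not called. Prrc2a, a large RNA-binding protein, read 227, 193 and 149 at 1 h, against 858, 618 and 675 before (-1.92 ± 0.22), and 870, 520 and 594 at 2 h. Vat1, a membrane protein of synaptic vesicles, read 125, 140 and 167 at 1 h, against 661, 333 and 405 before (-1.64 ± 0.29), and was 0.45 above the level before the drug at 2 h. Bag6, a chaperone of membrane proteins, followed the same course, with 444, 269 and 275 at 1 h, against 799, 662 and 675 before (-1.15 ± 0.23), and stood 0.20 above it at 2 h. Cnot3, named above, was not called in new RNA but was also near its earlier level at 2 h (-0.04). Of the 52 matrix genes 3 fell (5.77%, beside 3.83% of all genes): Col1a1, Col6a1 (-1.07) and Itga3 (-1.02). Without replicate 1 before, Col6a1 and Itga3 were at -0.96 and -0.95 and not called. Without replicate 1 at 1 h, Itga3 was at -0.71 and not called, and 6 matrix genes were called lower.

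Total RNA of cells without actinomycin D was not uniform in these 100 either. Each array's median, relative to the mean before the drug, was -1.26 to -1.14 at 1 h and -0.13 to 0.25 before. It was -0.42 to -0.28 in total RNA replicates 2, 5 and 8 of the 30 min label, the 3 with the larger Actb 3′ minus 5′ difference, against 0.59 to 0.88 in the other 6. The 30 min total RNA arrays also helped define these probe sets, as lower in new than in total RNA. In total RNA of the 60 min label, where cells were given 200 µM rather than 500 µM, the median was 0.13, -1.68 and -0.95. The array at -1.68 had the largest Actb difference of the total RNA arrays, 3.08. In p-RNA, a further fraction named in the 60 min titles, replicate 2 had an Actb difference of 1.54 and a median of 0.63. Replicates 1 and 3 of p-RNA had differences of 0.68 and 0.72 and medians of 0.44 and 0.38. On the arrays at 1 h of the drug the Actb difference was 0.61 to 0.72, against 0.69 to 0.79 before. That of Gapdh was -0.43 to -0.24 at 1 h, against -0.19 to -0.14 before. The part of RNA quality in the low level of these probe sets at 1 h was not tested.

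**Figure D4:**
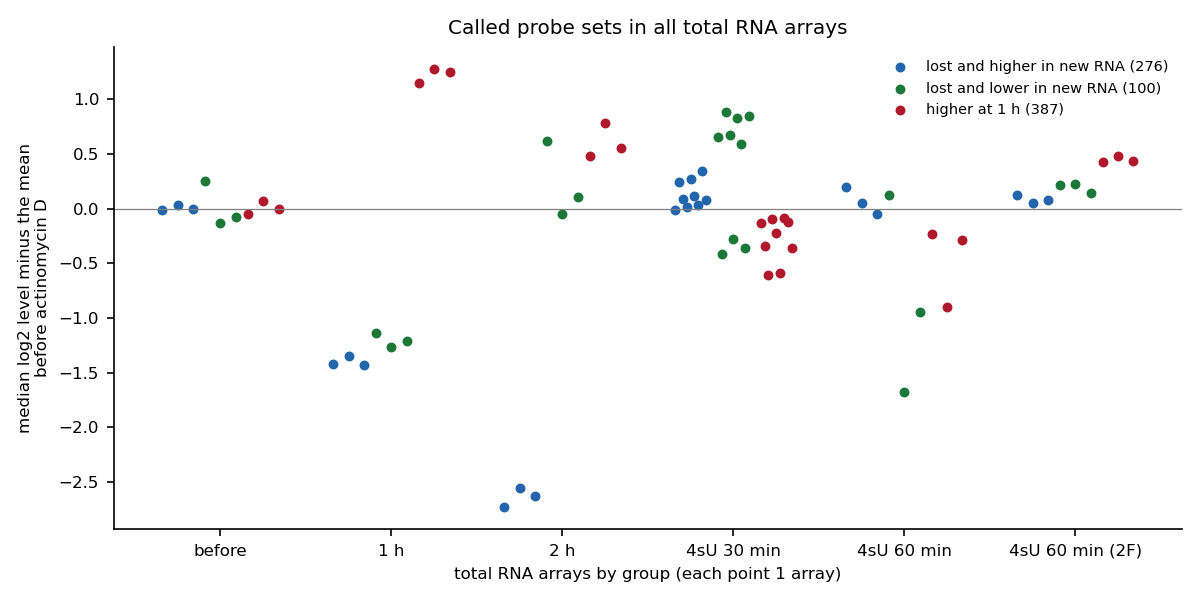
Median log2 level of 3 classes of called probe sets on each total RNA array, relative to their mean before actinomycin D, by group (1 point per array; 4sU is 4-thiouridine, at 500 µM for 30 min and 200 µM for 60 min, and 2F is a label of the submitters for a separate 60 min experiment). Losses that were higher in new RNA (blue) are lower still at 2 h. Those that were lower in new RNA (green) are at -0.04 to 0.62 at 2 h and spread from -1.68 to 0.88 over the arrays of 4sU-fed cells. Gains (red) are highest at 1 h, where the rule picked them for being high.

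The 160 lost probe sets not called in new RNA lay between the other classes, with medians of -1.18 at 1 h and -0.67 at 2 h, and 3 were not tested there. Of the 387 gains only 175 passed the filter, a mean log2 of at least 5 over the new and total RNA arrays together. A gain that was low in new RNA was thereby more likely to be left out. Of the 175, 15.4% were higher and 29.1% lower in new RNA, beside 15.1% and 29.2% of all. These shares do not describe all 387. With replicates 3, 6 and 9 alone, 29.7% were higher and 12.0% lower. The gains were picked by their rise at 1 h, so a high level there follows from the rule. On each array the median gain stood 1.15 to 1.28 above the level before the drug at 1 h and 0.48 to 0.78 above it at 2 h. It was 0.43 to 0.49 above it in total RNA of the 2F experiment, whose cells received 200 µM 4-thiouridine for 60 min and no actinomycin D, and -0.61 to -0.08 in total RNA of the 30 min label. In new RNA of the 30 min label the median over all 387 was -1.79 to -0.71, beside -0.49 to -0.37 over all probe sets tested at 1 h. In new over total RNA Cirbp stood at 0.05 ± 0.28, Ap1s2 at -2.01 ± 0.25 and Bst2 at -2.36 ± 0.14. H1f2 went the other way, at 2.10 ± 0.68, and was called higher in new RNA.

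**Figure D5:**
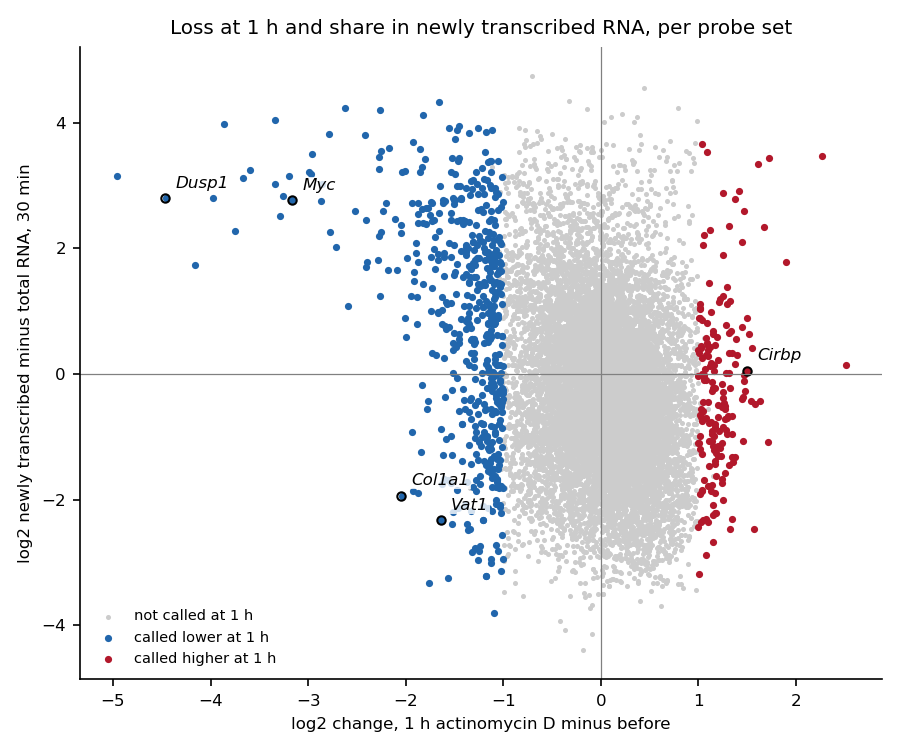
Each point is 1 of 14053 probe sets tested in both comparisons, with the log2 change at 1 h of actinomycin D minus before on the horizontal axis and newly transcribed minus total RNA at 30 min on the vertical axis; blue were called lower and red higher at 1 h. Of the blue points 276 were called above and 100 below 0 on the vertical axis, with Dusp1 at 2.80 and Col1a1 at -1.94.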

How the data were processed

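Total RNA of NIH-3T3 cells was biotin-labelled by Affymetrix's one-cycle method and hybridised to arrays, according to the submitted protocols. The authors deposited GCRMA intensities on a linear scale, per the submitters' processing notes; the method corrects background and quantile-normalises, and the GCRMA version is not given in the sources used here. The deposited intensities of all 45 arrays (2.17 to 39641.73) were taken to log2, so a log2 change is computed here from the authors' values. The number of arrays, not a read depth, limits the precision.

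Groups came from the sample titles. Of 31451 probe sets 61 controls were left out, and gene symbols came from the platform annotation: 25031 probe sets had 1 symbol, 690 several and 5669 none, and 24934 of the single symbols matched RefSeq. Probe sets with a mean log2 of at least 5 were fitted with limma 3.58.1 (R 4.3.3, lmFit and eBayes) over the 9 arrays before, at 1 h and at 2 h; new against total RNA at 30 min was fitted on 18 arrays in the same way. Errors are limma's SE. The fit was tested on simulated data with known changes. Genes named were Dusp1, Myc, Nfil3 and Actb, up to 20 of the largest called losses and gains with a mean log2 of at least 7, up to 5 called members of each list (the largest changes where under 2 were called), and called losses near the earlier level at 2 h. The comparison and the lists were chosen with earlier results of these data known. Same-numbered arrays at 1 h and before deviated together from their group means (correlations 0.18, 0.14 and 0.15). The fit behind the reported values did not pair them. A fit with the number as a block was run as an alternative. Other alternatives changed the filter, normalisation, pseudocount, array weights and arrays used.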

Additional observations from a re-analysis of the deposited data

Results flagged for a closer look

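Dixon's test was run on the 9 arrays of new RNA and the 9 of total RNA at 30 min. It covered genes whose new RNA values are given and the medians of classes of called probe sets, in 44 tests. Of these, 1 passed its 95% limit, and chance passes about 1 in 20. Dusp6 on the total RNA arrays had its lowest array, replicate 3, apart from the rest, with a gap of 0.594 of the range. The test takes the 9 arrays as independent, though they resemble each other in sets of 3. The groups of 3 arrays at 1 h and before were too small for such a test.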

How the results depend on the processing

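Counts of called probe sets at 1 h (539 lower, 387 higher) followed the brightness of the probe sets. A filter at a mean log2 of 7 left 202 lower and 97 higher of 9247 tested, no filter gave 1039 and 665 of 31390, and adding 32 to each intensity gave 265 and 94. Leaving out 1 array gave 468 to 632 lower and 363 to 483 higher. The fit of the 6 arrays alone, quantile normalisation, median centring, array weights and the replicate block kept both counts within 1.5 times; the replicate block gave 542 and 394 and changed no call of a named gene. For new against total RNA at 30 min (3804 higher, 4112 lower) the filter at 7 gave 1778 and 2305 of 9185, and the other settings, of which the averaged sets and replicates 3, 6 and 9 were chosen after seeing the data, stayed within 1.5 times. No named gene changed direction in a call under any setting; 30 fell short of the threshold with 32 added, and 14 of 89 named losses and 7 of 15 named gains did without 1 array. Without detection calls, changes to levels under 32 are uncertain in size.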
